A study of Mus musculus with 6 samples.

Results

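The TIF1 family of corepressors, Trim24, Trim28, Trim33 and Trim66, was followed in resting naive CD4 T cells, which are helper T cells before a first encounter with antigen. Cells came from C57BL/6 mice, with 3 libraries from TRIM28KO mice (KO1 to KO3) and 3 from wild-type littermates (WT1 to WT3). They were enriched on magnets and sorted by flow cytometry, and their total RNA was sequenced. The labels give no age, no Cre driver and no part of Trim28 that was removed, and they do not say whether each library is a separate mouse, so p-values reflect library-to-library spread only. The members were taken by gene symbol through RefSeq accessions: 4 genes, each with 1 row among 19048 transcript rows, of which 3 had a mean of at least 10 normalized reads over the 6 libraries and entered a test with 13022 rows in all.

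TIF1 proteins carry B-box zinc fingers and a coiled coil towards one end. At the other they carry a PHD finger and bromodomain, domains that read histone tails in many proteins. Trim28 is brought to DNA by KRAB zinc finger proteins and in turn brings in HP1 proteins, the NuRD remodeller and the histone methyltransferase Setdb1. Trim24 is a coregulator of nuclear receptors such as the retinoic acid receptor, and Trim33 acts with Smad proteins in signalling by transforming growth factor beta. Trim66 is known in the mouse as an HP1-binding member expressed in testis.

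Each gene but Trim28 has several RefSeq transcripts, and a single one of them stands in the table. Trim24 is represented by NM_001272076, which begins inside the gene, 29676 bases after the first annotated start (chromosome 6, plus strand of mm10, transcript from 37900487 to 37965932). Its only sequence held by no other Trim24 transcript is its own first exon, 244 bases at 37900487 to 37900730, of which 154 are coding. Its other 3014 bases are shared with NM_145076, whose first exon lies before the internal start. The Trim24 transcripts NM_145076 and NM_001272064, which have no base of their own, are not analysed here. The starts of the 2 kinds of Trim24 transcript differ in sequence. They are shown because the Trim24 result below is that of the row named for the transcript with the internal start. The 250 bases before each start are given 5′ to 3′ on the plus strand from RefSeq's GRCm38.p6 assembly, with CG dinucleotides in capitals. They cover chr6:37870561-37870810 for the first start and chr6:37900237-37900486 for the internal start, and chr7:13023902-13024151 for Trim28, the deleted gene.
Trim24 first start: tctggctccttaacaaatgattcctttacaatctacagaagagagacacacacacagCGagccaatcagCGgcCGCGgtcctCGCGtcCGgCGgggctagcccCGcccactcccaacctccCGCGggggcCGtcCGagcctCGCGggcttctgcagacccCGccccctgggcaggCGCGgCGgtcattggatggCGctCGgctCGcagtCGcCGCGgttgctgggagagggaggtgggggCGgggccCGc
Trim24 internal start: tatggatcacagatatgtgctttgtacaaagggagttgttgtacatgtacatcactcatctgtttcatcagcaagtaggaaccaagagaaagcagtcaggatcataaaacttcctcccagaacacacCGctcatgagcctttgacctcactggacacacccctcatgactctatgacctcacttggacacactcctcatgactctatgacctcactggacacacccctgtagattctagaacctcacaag
Trim28 start: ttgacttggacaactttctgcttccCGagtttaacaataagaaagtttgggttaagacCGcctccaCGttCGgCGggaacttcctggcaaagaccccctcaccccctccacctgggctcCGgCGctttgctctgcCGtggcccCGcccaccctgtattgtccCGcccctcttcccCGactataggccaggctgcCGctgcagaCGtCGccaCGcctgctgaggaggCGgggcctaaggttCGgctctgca
The first Trim24 start has 27 CG dinucleotides in these 250 bases, more than 91.4% of 32851 RefSeq promoters, and Trim28 has 17. The internal Trim24 start has 1, fewer than the promoter median of 6, and its G and C content is 46% against 69.6% at the first start. It also holds 2 copies of the 23-base run CCTCATGACTCTATGACCTCACT, and 0.871% of the promoters hold a repeated run at least that long. The GC box GGGCGG, searched on both strands, is present at the first Trim24 start and at Trim28 and in 32.7% of all promoters, and these letters are not in the window of the internal start. The CCAAT box, CCAAT on both strands, is present at the first Trim24 start alone of the 3 and in 33.8% of all promoters, and the TATA box TATAAA is in none of the 3 windows and in 12.4% of all promoters.

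**Figure D1:**
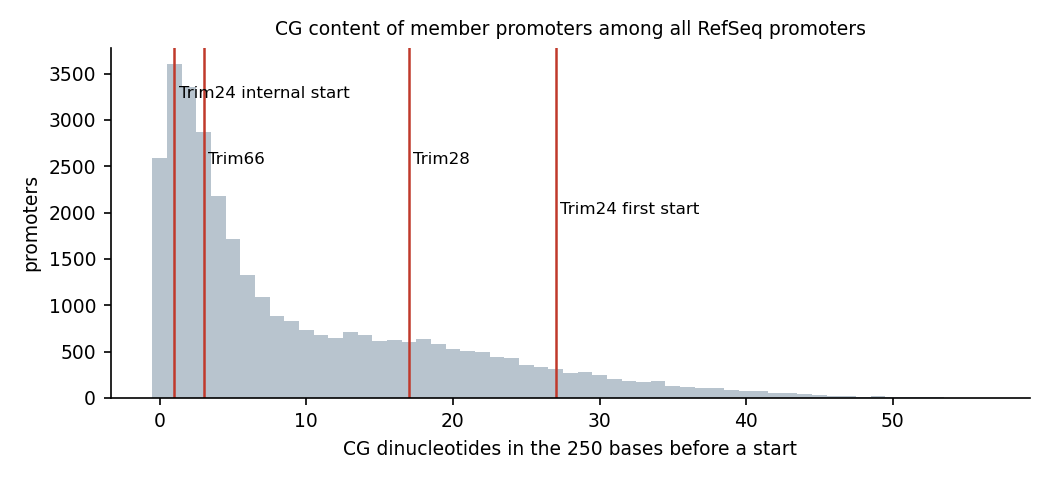
Number of RefSeq promoters (vertical axis) by the count of CG dinucleotides in the 250 bases before the start (horizontal axis), with red lines at promoters of Trim24, Trim28 and Trim66. Trim33 had no promoter in the reference used and is not shown. The internal Trim24 start has 1 and Trim66, at a start other than that of its row, has 3, on the low side, while Trim28 has 17 and the first Trim24 start has 27.

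The sources used here do not say how reads shared by several transcripts were counted, so the table itself was examined. Among genes with several RefSeq-matched transcripts in GENCODE M21, a row was present for 8.03% of 3411 transcripts with no base of their own, 32.4% of 2220 with 1 to 50, and 56.9% of 1947 with over 1000. The median level of those rows was 16.0, 19.2 and 106 normalized reads in the same order, and it was 346 in genes with a single transcript. The relation is not strict: Trim34a had 2 bases of its own by these models and a mean of 3490 in KO and 4104 in WT libraries. The exon models are GENCODE's, and RefSeq's own transcript ends were not used here. Values of Trim24, Trim33 and Trim66 are therefore described as values of their transcript rows, not of the whole gene.

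**Figure D2:**
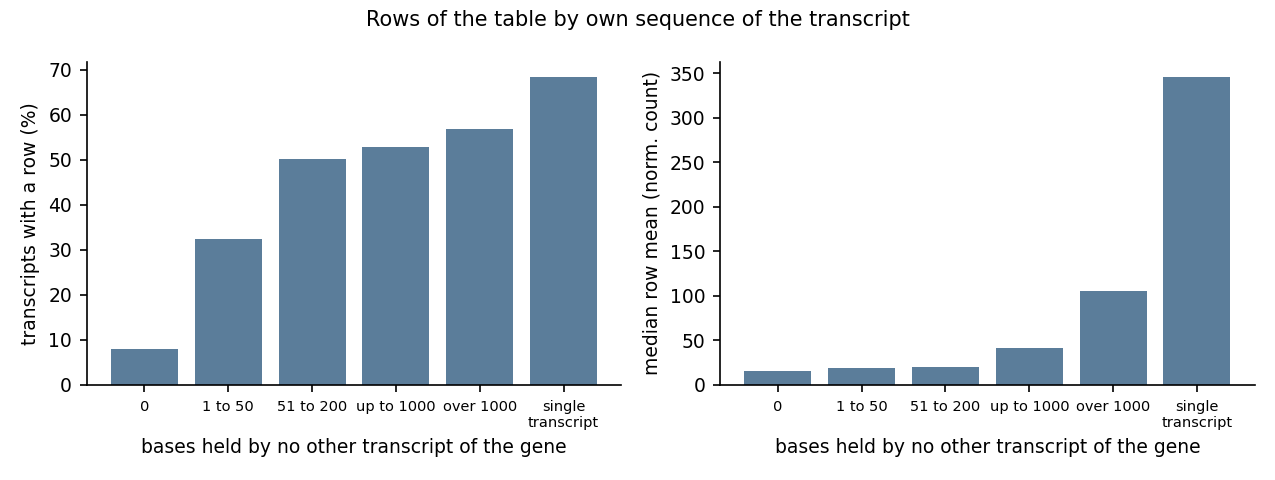
Percent of RefSeq transcripts that have a row (left) and the median of the rows' mean normalized read counts (right), by the number of bases that no other transcript of the gene holds. The share goes from 8.03% with no such base to 56.9% with over 1000, and genes with a single transcript stand highest, at 68.4% and 346 normalized reads.

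**Figure D3:**
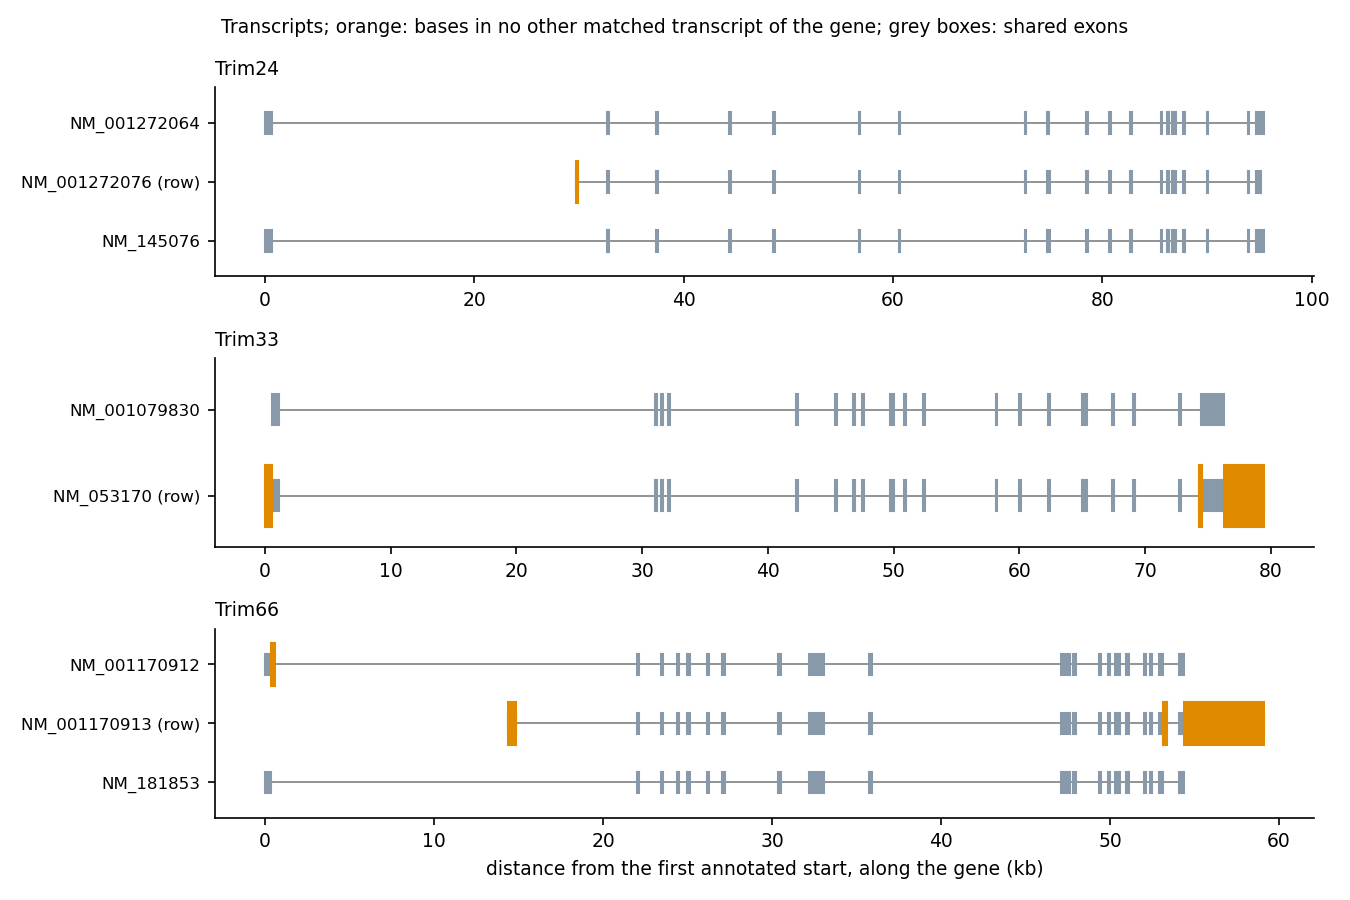
RefSeq-matched transcripts of Trim24, Trim33 and Trim66 by distance from the first annotated start in kilobases, with shared exons as grey boxes and bases held by no other transcript in orange, both widened where needed to stay visible. The Trim24 row has orange in its first exon alone, while the rows of Trim33 and Trim66 have it at both ends and at 1 short coding stretch.

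Trim28 itself checks the labels. Its row NM_011588 (chromosome 7, positions 13024152 to 13031035) covers the only matched transcript, 3245 bases. It held 738, 628 and 1247 normalized reads in KO1, KO2 and KO3, against 8429, 8287 and 9428 in WT1, WT2 and WT3. The groups lay far apart, and KO3 kept the most Trim28, at 14.3% of the wild-type mean, against 8.46% in KO1 and 7.21% in KO2. Trim28 fell by 3.38 on the log2 scale (SE 0.22, n = 3 per group; limma adjusted p 0.000135). Of all tested rows, 0.315% fell, and in 9.58% every KO value lay below every WT value. A predicted gene without a row, Gm31649, overlaps the start of Trim28, and its reads could not be told from those of Trim28 without strand. This fall is what the genotype defines, and reads that remain cannot be assigned to a deleted or an intact allele.

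The Trim24 row rose in cells without Trim28. It held 109, 111 and 35.9 normalized reads in KO1, KO2 and KO3, against 11.2, 6.60 and 7.72 in WT1, WT2 and WT3. All 3 KO values lay above all WT values. KO1 and KO2 were nearly equal, at 12.8 and 13.0 times the wild-type mean, and KO3 stood at 4.22 times. In whole reads these are 152, 76 and 45 in KO libraries and 8, 6 and 10 in WT libraries. The fitted fold was 8.24 (95% interval 3.85 to 17.6; log2 fold change 3.04, SE 0.48, n = 3 per group; limma adjusted p 0.0170). Among all tested rows, 1.19% rose, and in 9.21% every KO value lay above every WT value. By exact permutation of the libraries, two-sided, p was 0.1, the lowest value that groups of 3 can reach. The call was lost without KO1 (log2 fold change 2.79, adjusted p 0.102), KO2 (2.77, 0.111), WT2 (2.90, 0.0676) or WT3 (adjusted p 0.0741), and with voom weights on whole reads (3.08, adjusted p 0.133). Without KO3 it was 3.57 (adjusted p 0.000527).

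Both sexes were present in each group, by the summed level of 4 Y-linked genes, which was 12680 in KO2 and 13620 in WT1 and at most 2.39 elsewhere. Between the libraries with high Y-linked levels Trim24 stood at 111 in KO2 against 11.2 in WT1, and among the others at 109 and 35.9 in KO1 and KO3 against 6.60 and 7.72 in WT2 and WT3. The log2 fold change among those others was 2.96, without passing (adjusted p 0.334 with 2 libraries per group).

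KO3, the library with the least Trim24 and the most Trim28 among the knockouts, also held more transcripts that mark other cells. Its summed B cell markers (5 of 6 listed had a row, Ighm had none) were 1465 normalized reads, against 192 and 188 in KO1 and KO2 and 171 to 321 in WT libraries. Its CD8 markers Cd8a and Cd8b1 summed to 4416, against 755 and 708 in KO1 and KO2 and 561 to 1065 in WT libraries. Markers of natural killer cells (5 of 5 with a row) summed to 1716, against 436 and 409 in the other knockouts and 266 to 366 in WT libraries, and myeloid markers (6 of 6) to 740, against 107 and 68.5 and 47.3 to 252. The members of these lists differed. Eomes of the first list was at 18.3 in KO3, and Itgam, Cd14 and Adgre1 of the second at 4.78, 0 and 12.8, each within the WT range. Genes of activated or memory T cells (5 of 5) summed to 10212, against 3361 and 2676 and 2559 to 3232. Most of the KO3 sum was Mki67, a proliferation marker, at 4624 and Il2rb, a cytokine receptor chain, at 4727, while Cd44 was at 68.5 in KO3, within the 60.0 to 89.2 of the other 5 libraries. Regulatory T cell markers (4 of 4) summed to 4200, against 1946 and 1857 and 1332 to 1732. Most of that sum was Ikzf2, at 3249 in KO3, while Foxp3, the defining factor of these cells, was lowest in KO3, at 2.39 against 6.97 to 11.4 in the other 5 libraries. The Foxp3 row was under the filter and was not tested. Each marker value is that of 1 transcript row, so the low Foxp3 and Cd44 rows may not give the level of either gene. Il2ra, the interleukin-2 receptor alpha chain, was high in every knockout, at 358, 373 and 714 in KO1, KO2 and KO3 against 172, 151 and 188 in WT1, WT2 and WT3, and was called (log2 fold change 1.43, limma adjusted p 0.0326). The part of these marker lists in the Trim24 and Trim28 values of KO3 was not tested. T cell markers (6 of 6) were at 92968 to 105614 in KO and 102399 to 107299 in WT libraries, and naive cell markers (5 of 5) at 58115 to 82470 in KO and 75378 to 90987 in WT libraries, with KO3 the lowest in both. In bulk RNA, fewer cells of a type and less RNA per cell cannot be told apart. The 3 erythroid markers with a row summed to 3.57, 16.0 and 105 in KO1, KO2 and KO3 and to 13.1 to 89.2 in WT libraries.

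Trim33 showed no called difference. Its row, NM_053170 (chromosome 3, positions 103279293 to 103358775), held 178, 213 and 151 normalized reads in KO1, KO2 and KO3, against 155, 147 and 176 in WT1, WT2 and WT3. The groups overlapped: KO1 and KO2 lay above every WT library, KO1 by little, and KO3 lay among them. The log2 fold change was 0.17 (SE 0.17, limma adjusted p 0.730), with a 95% interval of -0.23 to 0.56, which spans folds of 0.855 to 1.48 for this row. The sequence held by this row alone is 586 bases before the coding region, a coding stretch of 51 bases and 3213 bases after the coding region. If NM_001079830 has the same ends in the authors' annotation, only the 51 coding bases would be its own. The level of Trim33 per length is therefore not set against the other members, and only its change between the groups is compared.

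Trim66 was close to absent. Its row, NM_001170913 (chromosome 7, positions 109449006 to 109493738), held 0 reads in each KO library and 1, 0 and 0 reads in WT1, WT2 and WT3. A count of 0 over the KO libraries allows up to 3 reads, which covers counting error only, so no difference was detectable. This row starts inside the gene as well, and 5227 of its 9250 bases are held by no other matched Trim66 transcript. Other Trim66 transcripts, NM_001170912 and NM_181853, are not analysed here.

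**Figure D4:**
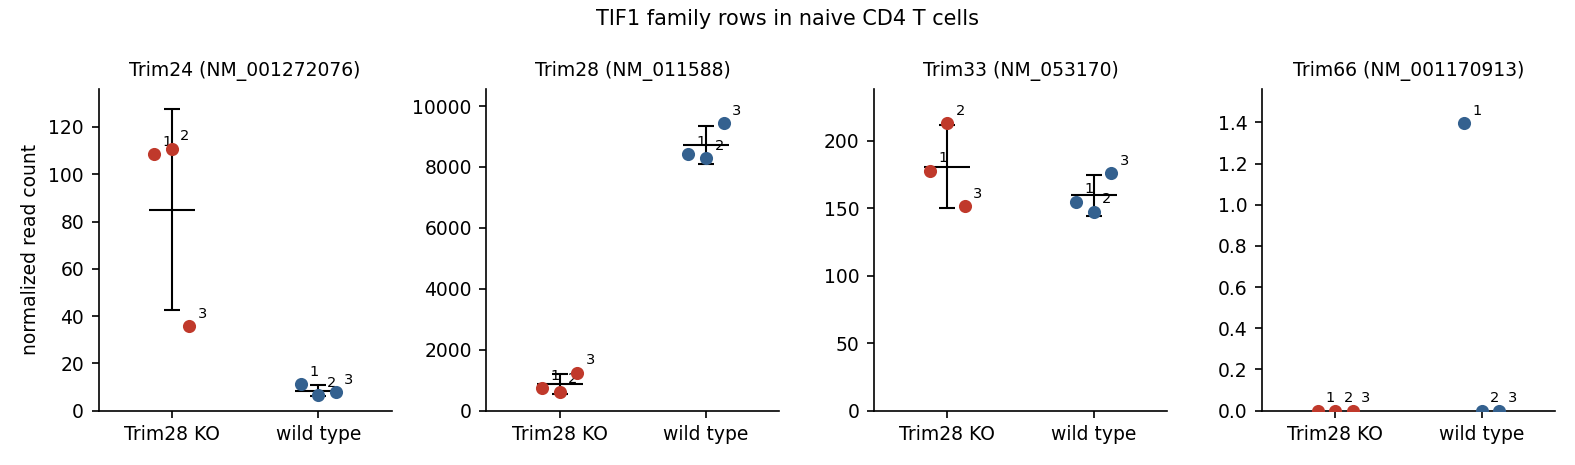
Normalized read count of each member's row in each library, on axes from 0, with the knockout left of the wild type, numbers for the replicate, and bars for the mean and SD of 3 libraries (none drawn for Trim66, which had 1 read in all). Trim24 is at 35.9 to 111 in KO and at most 11.2 in WT libraries, Trim28 at most 1247 against at least 8287, and Trim33 overlaps.

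The change of the Trim24 row was also set against that of the Trim33 row, through their ratio within each library; the size of the ratio itself is not a comparison of levels, since the rows differ in the length they cover. The log2 ratio of Trim24 to Trim33 was -0.71, -0.94 and -2.05 in KO1, KO2 and KO3, against -3.68, -4.29 and -4.34 in WT1, WT2 and WT3. The ratio was higher in each KO library, by 2.87 in the means, and the exact two-sided permutation p was 0.1, the smallest possible. Trim33 differed far less between libraries than Trim24, so this p repeats the separation of the Trim24 row and is no further evidence. Per kilobase of own sequence, the level of the Trim24 row was 349 ± 175 normalized reads in KO and 34.8 ± 9.72 in WT libraries, and that of the Trim28 row 268 ± 102 in KO and 2686 ± 192 in WT libraries (SD, n = 3 per group). Whether the Trim24 row counts only reads on its own bases is not known. If it does, its value stands for the first exon of 1 transcript. The Trim28 value stands for a whole transcript, so the 2 genes are not ranked. Sequenced fragments can be longer than the 244 bases of the Trim24 exon, so this scale is approximate for Trim24.

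Svopl, the nearest measured gene after Trim24, rose too. It encodes a relative of the synaptic vesicle transporter-like protein Svop, lies 15294 bases beyond Trim24 on the opposite strand (chromosome 6, positions 37983739 to 38047009), and has 1 matched transcript of 2366 bases. Its row held 296, 283 and 226 normalized reads in KO1, KO2 and KO3, against 13.9, 1.10 and 28.6 in WT1, WT2 and WT3. The KO values were close to each other and the WT values were not. The log2 fold change was 4.78 (SE 0.81, limma adjusted p 0.0248), and it was not called without KO1 (4.70, adjusted p 0.115), KO2 (4.73, 0.134) or WT1 (5.08, 0.0828), without the limma trend (4.78, 0.132) or with Y-linked transcripts as a covariate (4.75, 0.0635). The size depended on single WT libraries: it was 3.67 without WT2 (adjusted p 0.0018) and 5.58 without WT3 (0.0133), called in both. It was 5.04 among the 4 libraries with nearly no Y-linked reads, where it was not called (adjusted p 0.451). Before Trim24, the 2 nearest annotated genes are pseudogenes, of which Atp6v0c-ps2 had at most 3.19 normalized reads in a library and Gm7492 had no row.

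Of the genes beside the other members, those with a tested row showed no call in limma. The nearest annotated genes at higher positions than Trim33 and at lower positions than Trim66 had no row, so those sides were not measured. Beside Trim28, Ube2m, which encodes an enzyme that conjugates the ubiquitin-like protein Nedd8, had 201 ± 65.8 normalized reads in KO and 279 ± 13.7 in WT libraries (SD, n = 3 per group; log2 fold change -0.52, adjusted p 0.369), and was called without KO3 (-0.77, adjusted p 0.0308). Leaving out KO3 raised the calls over the whole table from 196 to 553 rows. Chmp2a, of the membrane-scission machinery, lies 974 bases beyond Trim28 and had 3751 ± 380 in KO and 4044 ± 100 in WT libraries. Zbtb45 and Slc27a5 on the other side had log2 fold changes of 0.08 and 0.82, neither passing. Bcas2, a splicing factor gene 100130 bases before Trim33, had 2691 ± 301 in KO and 3042 ± 172 in WT libraries. Rpl27a, a ribosomal protein gene beside Trim66, had 28385 ± 2909 in KO and 35690 ± 3793 in WT libraries. Neither passed. Snora3, a small nucleolar RNA within Rpl27a, had a log2 fold change of -0.34 without passing.

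Of 53 other genes with a Trim name, 34 were tested. The limma fit called 0 and voom weights called 0, while an unadjusted p under 0.05 was found for 3 (8.82%), beside 12.7% of all tested rows with such a p and 1.51% called. Their median log2 fold change was -0.01, against 0.0019 over all tested rows. The KO and WT values lay apart in 8 of the 34 (23.5%), against 18.8% of all tested rows. Trim59 had the smallest p, at 6763, 6329 and 3532 normalized reads in KO1, KO2 and KO3 against 2331, 3156 and 2207 in WT1, WT2 and WT3. All its KO values were above its WT values, and KO3 was close to the highest WT library. Its log2 fold change was 1.07 (SE 0.24, limma adjusted p 0.0894). It was called without KO3 (1.37, adjusted p 0.000465) and with scaling by library total (1.13, 0.0444) or by upper quartile (1.14, 0.0384). Without KO3, 553 rows were called over the whole table, against 196 with all libraries. Trim34a was at 3490 ± 136 in KO and 4104 ± 67.1 in WT libraries (SD, n = 3 per group; adjusted p 0.252), and Trim36, a low gene, at 16.7 ± 8.71 and 5.66 ± 1.29 (adjusted p 0.366). By the GENCODE models, 20 of the 34 tested rows belong to genes with a single matched transcript, and 9 belong to genes with several and have at most 200 bases of their own.

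Among genes that work with the family, 37 of 44 listed were tested. By the GENCODE models, 24 of the 37 tested rows belong to genes with a single matched transcript. Another 5 belong to genes with several and have at most 200 bases of their own. The values below are those of transcript rows. The limma fit called 0 and voom weights called 0, while an unadjusted p under 0.05 was found for 7 (18.9%), beside 12.7% of all tested rows. The KO and WT values lay apart in 8 of the 37 (21.6%), against 18.8% of all tested rows. Trim28's effectors in silencing had 8 of 9 tested, with a median log2 fold change of 0.03 and 2 (25%) at an unadjusted p under 0.05. Atf7ip, the partner that stabilises Setdb1, was at 15367, 13698 and 9297 normalized reads in KO1, KO2 and KO3, against 6356, 8767 and 7336 in WT1, WT2 and WT3. The groups lay apart, with KO3 just above WT2. Its log2 fold change was 0.75 (SE 0.19, limma adjusted p 0.128), and it was called without KO3 (0.97, adjusted p 0.0028). That setting called 553 rows over the whole table, against 196 with all libraries. Chd4, the NuRD helicase, had a log2 fold change of 0.26 (adjusted p 0.362) and Hdac1, a histone deacetylase of the same complex, one of 0.12 (adjusted p 0.809). The HP1 genes Cbx1, Cbx3 and Cbx5 lay between -0.04 and 0.03. The Setdb1 row, NM_001163641, has 38 bases of its own and was below the filter, at 7.14, 11.7 and 6.38 normalized reads in KO and 8.37, 2.20 and 6.95 in WT libraries, so Setdb1 as a gene was not tested.

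Genes whose products modify Trim28, the SUMO pathway, the DNA damage kinases and the phosphatases, had 11 of 12 tested and a median log2 fold change of -0.05. An unadjusted p under 0.05 was found for 4 of the 11 (36.4%), beside 12.7% of all tested rows. Sumo3, a SUMO protein, was at 3106 ± 197 normalized reads in KO and 2489 ± 133 in WT libraries (SD, n = 3 per group; limma adjusted p 0.170). Ppp1cb, a catalytic subunit of protein phosphatase 1, had a log2 fold change of 0.54 (adjusted p 0.244). It was called without KO3 (0.75, adjusted p 0.0064), the setting with 553 calls over the whole table. Of the 12 genes around Trim33 and the Smads, all were tested, 1 (8.33%) had an unadjusted p under 0.05 and the median was -0.03. Smad5, a signal transducer of bone morphogenetic proteins, averaged 40.3 normalized reads in KO and 67.3 in WT libraries (adjusted p 0.336), Skil, a repressor of Smad signalling, had a log2 fold change of 0.30 (adjusted p 0.457), and Smad7, an inhibitory Smad, one of -0.16 (adjusted p 0.581). Of 11 genes for nuclear receptors and the p53 pathway around Trim24, 6 were tested, 0 had an unadjusted p under 0.05 and the median was -0.11. Esr1, the estrogen receptor, had 0.36 (adjusted p 0.701), Rarg, a retinoic acid receptor, -0.25 (adjusted p 0.717), and Mdm2, the ligase that restrains p53, -0.09 (adjusted p 0.828). By the GENCODE models the Esr1 row has no base of its own, and those of Smad5 and Skil have 145 and 142.

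**Figure D5:**
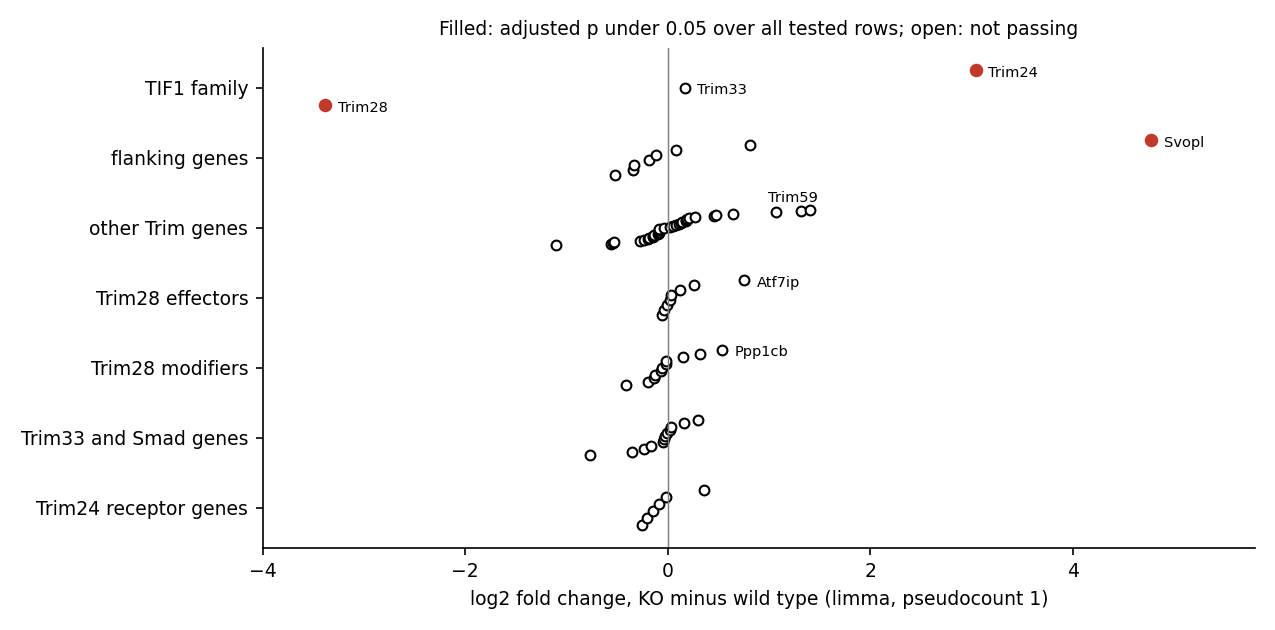
Log2 fold change, KO minus wild type, of every tested row of the family, its flanking genes, other Trim genes and the partner lists, with filled points for an adjusted p under 0.05 over all tested rows. Trim28 at -3.38, Trim24 at 3.04 and Svopl at 4.78 are the filled points, and no point of the partner lists or other Trim genes is filled.

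The rows whose levels followed each member most closely over the 6 libraries were found by Pearson correlation of log2 values, among 10147 or 10148 rows with a mean of at least 50. With 2 genotypes, such a correlation is largely set by the difference between the groups, and it is given as a description. For Trim24 they were Mturn and Hsdl1 (r = 0.997 each), whose values were nearly equal in KO1 and KO2, with KO3 between these and the WT libraries. Mturn was at 1601, 1602 and 1341 normalized reads in KO1, KO2 and KO3, against 1177, 1121 and 1113 in WT1, WT2 and WT3. Neither was called, at limma adjusted p of 0.123 and 0.263. For Trim28 they were Cd200r4 (r = 0.996), AI854703 (0.995) and Gimap3 (0.993). Cd200r4, of the Cd200 receptor family, was at 107, 102 and 119 in KO libraries and 181, 195 and 201 in WT libraries, and it and Gimap3, a small GTPase of lymphocytes, fell (adjusted p 0.0387 and 0.0045 in limma). For Trim33 they were Araf (r = 0.987), a kinase of the growth factor pathway, Tra2b (0.972), a splicing regulator, and AI987944 (0.962). Like Trim33, Araf was highest in KO2 and lowest in WT2, followed by KO3, at 487, 561 and 444 in KO1, KO2 and KO3 against 464, 441 and 492 in WT1, WT2 and WT3.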

How the data were processed

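The authors deposited 1 table of 6 columns with values on a log10 scale. Tools named in the submitters' processing notes are STAR, HTSeq and DESeq2, and the build is mm10; versions and roles are not stated. Each value was turned back as 10 to its power minus 1. In each library, 100% of the values above 0 were then whole multiples of the worth of 1 read (tolerance 0.01). Depth was 22005759 to 44372701 whole reads. RefSeq (GRCm38.p6) gave symbols to 18811 rows and GENCODE M21 to a further 104, and 133 had none.

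Normalized read counts plus a pseudocount of 1 were log2 transformed and fitted with limma 3.58.1 (R 4.3.3), with the empirical Bayes trend, over all 6 libraries and without covariates, for rows with a mean of at least 10. The pseudocount understates changes of low rows. Calls are two-sided at 0.05 after Benjamini-Hochberg adjustment across all tested rows. The fit was tested on simulated data. Whole reads served limma's voom weights as an alternative. Members, lists and tests were chosen with earlier results of these data known. Named are the members, flanking genes, rows most like each member, and called or lowest-p genes of each list; 2 genes this rule takes are not reported here. Where a gene has several rows, the one with the highest total stands for it. No source used here says whether the libraries keep strand.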

Additional observations from a re-analysis of the deposited data

How the results depend on the processing

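Trim28 and Trim33 kept their direction and their side of the threshold in 19 of 19 other settings, at log2 fold changes of -3.67 to -3.18 and 0.026 to 0.29. Trim24 stayed positive in 18 of 18 and was called in 11 of them (its mean is under the filter of 50). It was not called without the limma trend (3.04, adjusted p 0.0663), with voom weights (3.08, 0.133) or, in a setting chosen after the data were seen, among the 4 libraries with nearly no Y-linked reads (2.96, 0.334). Leaving out each library gave 2.77 to 3.57, and the Trim24 call was also lost without KO1, KO2, WT2 or WT3. The number of rows called over the whole table, 196, went to 124 without the trend and to 37 among those 4 libraries. With each library left out it was between 113, without KO2, and 553, without KO3. Other Trim genes had 1 call, Trim59, with total or upper quartile scaling and with the replicate block, and 0 to 1 with each library left out. Partner genes had 0 to 2, the 2 being without KO3. Hdac1 changed sign without KO2 (-0.0022, range with each library left out up to 0.26) and Zbtb45 without KO1 (-0.056, up to 0.16), both uncalled. Trim66 could be fitted only with no filter (-0.42, adjusted p 0.810).

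Whether replicate numbers pair the libraries could not be told. Deviations from group means correlated at -0.31, 0.26 and 0.36 for numbers 1, 2 and 3. For unlike numbers the correlations ran from -0.44 (KO3 with WT2) to 0.37 (KO1 with WT2). With the replicate block 175 rows were called, Trim24 remained called (adjusted p 0.0233), and Trim59 was called at 1.07 (adjusted p 0.0281). Depth limits Trim66 and the wild-type level of Trim24, which rests on 24 reads.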

Other observations

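Trim24 is a gene with several transcripts, and its row was set beside the other rises for this. Of 148 rows that rose in limma and have a GENCODE match, 19 (12.8%) belong to genes with several matched transcripts and 15 have at most 1000 bases of their own, against 3781 (32.1%) and 2962 of 11789 matched tested rows. Among 35 matched rows that fell, 6 (17.1%) belong to such genes. These shares were not tested.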
